A study of Homo sapiens with 27 samples.

Results

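The 9 genes described here, HLA-B, HLA-C, HLA-E, B2M, TAP1, TAP2, PSMB8, PSMB9 and NLRC5, encode MHC class I molecules and the proteins that supply them with peptides or switch on their genes. They were taken by name from the 60619 Ensembl genes of an RNA-Seq count table, and all 9 were found. The table covers 27 libraries from MM134 (MDA-MB-134VI) and SUM44 cells, which are estrogen receptor-positive cell lines of invasive lobular breast carcinoma (ILC), in 9 groups of 3 libraries. The comparison of interest is between long-term estrogen-deprived (LTED) variants, made to mimic resistance to aromatase inhibitors, and the parental cells they came from. MM134 is represented by parental cells and 4 variants (LTED-A, LTED-B, LTED-D, LTED-E). The SUM44 groups are 2 parental cultures, SUM44PE and SUM44F, and the variants LTED-A and -B. SUM44F is SUM44PE adapted to another medium with full serum, and it is the culture from which both SUM44 variants were derived. Parental cells spent 3 days in medium with charcoal-stripped serum before collection, while each LTED variant emerged in such medium over months and was kept in it, so that all 9 groups were without serum hormones, and the labels name no engineered allele or added drug in any of them. Each variant is 1 derivation, and its replicates are wells of 1 culture, so that the p-values measure the spread between wells only.

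MHC class I molecules show peptides from inside the cell to cytotoxic T cells. Proteins are cut by the proteasome, in which PSMB8 and PSMB9 can replace constitutive catalytic subunits, the peptides are pumped into the endoplasmic reticulum by the TAP1-TAP2 transporter, and they are loaded there onto a heavy chain paired with the light chain β2-microglobulin, the product of B2M. HLA-B and HLA-C are classical heavy chains, HLA-E is a non-classical one that is read by receptors of natural killer (NK) cells, and NLRC5 is a co-activator of class I transcription that works through the RFX, CREB and NF-Y factors bound at the class I promoters.

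Promoter sequences of 7 of the 9 genes were found in RefSeq on GRCh38.p14, with a pair of start sites each for PSMB8 and TAP1. HLA-E and NLRC5 were not among them. The 250 bases before the start site are shown for 5 promoters, because they carry the kinds of element through which these genes are known to be switched together. Capitals mark matches on either strand to GAAA, any 2 bases and GAAA again (the core of the interferon-stimulated response element, ISRE), TGACG (a CRE half-site), CCAAT and GGGNNTTCC (a κB-like motif), and matches of the ISRE core can overlap each other. The sequences run 5′ to 3′ in the direction of transcription, at chr6:31357180-31357429 (minus strand) for HLA-B, chr6:31272093-31272342 (minus) for HLA-C, chr15:44711267-44711516 (plus) for B2M, chr6:32853705-32853954 (minus) for TAP1 and chr6:32853942-32854191 (plus) for PSMB9.
HLA-B: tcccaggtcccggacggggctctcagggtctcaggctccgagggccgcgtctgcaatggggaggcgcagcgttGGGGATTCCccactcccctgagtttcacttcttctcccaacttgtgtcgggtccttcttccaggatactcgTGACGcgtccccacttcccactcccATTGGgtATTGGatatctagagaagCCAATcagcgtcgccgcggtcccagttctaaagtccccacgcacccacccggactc
HLA-C: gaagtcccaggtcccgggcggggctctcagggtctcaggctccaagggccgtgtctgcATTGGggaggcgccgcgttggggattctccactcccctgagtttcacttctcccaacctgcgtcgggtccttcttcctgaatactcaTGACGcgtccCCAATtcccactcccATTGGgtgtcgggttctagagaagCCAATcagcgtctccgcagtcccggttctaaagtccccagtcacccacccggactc
B2M: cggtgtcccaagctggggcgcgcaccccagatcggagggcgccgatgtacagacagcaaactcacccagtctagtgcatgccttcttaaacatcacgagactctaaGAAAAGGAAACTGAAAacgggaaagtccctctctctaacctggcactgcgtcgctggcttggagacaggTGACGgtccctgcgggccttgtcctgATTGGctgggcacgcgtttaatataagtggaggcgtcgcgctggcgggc
TAP1: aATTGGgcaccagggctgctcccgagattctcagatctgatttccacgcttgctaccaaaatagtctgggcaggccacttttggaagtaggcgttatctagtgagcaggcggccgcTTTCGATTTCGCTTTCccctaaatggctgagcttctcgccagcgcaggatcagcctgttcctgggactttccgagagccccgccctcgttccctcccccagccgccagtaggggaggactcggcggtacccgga
PSMB9: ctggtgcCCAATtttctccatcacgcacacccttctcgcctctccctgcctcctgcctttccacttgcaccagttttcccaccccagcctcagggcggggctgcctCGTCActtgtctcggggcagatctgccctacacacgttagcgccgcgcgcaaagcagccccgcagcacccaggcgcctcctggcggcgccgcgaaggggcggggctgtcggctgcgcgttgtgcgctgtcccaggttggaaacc

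A CRE half-site followed downstream by a CCAAT box on the other strand is seen in HLA-B, HLA-C and B2M, where the half-site starts at -106, -105 and -75 from the start site. Over the windows from 250 bases before to 50 bases after the start, TGACG was found in 6 of the 9 windows of these 7 genes, against 24.6% of 35116 RefSeq promoters. CCAAT was found in 5 of the 9 windows, against 34.6% of all promoters. The ISRE core was found in 4 of the 9 (B2M, TAP1, TAP2 and PSMB8), against 3.57%, and the κB-like motif in 3 (HLA-B, PSMB8 and B2M), against 6.58%. In B2M and TAP1 the ISRE core stands as a pair of overlapping matches, at -144 and -138 in B2M and at -134 and -128 in TAP1. The windows of HLA-B and HLA-C matched at 88.5% of aligned positions. TAP1 and PSMB9 point away from each other, with start sites 488 bases apart, so that their printed stretches together fill the interval between the starts. A match is a description of letters and does not show binding.

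The sum of counts per library ranged from 28583554 to 134882175, with a median of 44018412. SUM44 LTED-A replicates 2 and 3 differed by less than the sampling noise and were counted as 1 sample, so that n = 2 for this variant. Of 6 luminal epithelial markers none was at or under 3 counts in any group, with summed levels of 2242 to 7224 CPM (counts scaled to the library size after TMM normalization), and CDH1, which lobular cells typically lose, was at 8.36 to 24.6 CPM. Single luminal markers moved in both directions. In MM134, KRT8 rose in all 4 variants (0.79 to 1.11) and KRT18 in 1. GATA3 fell in 2 of them (-1.01 to 0.22 over the 4) and ESR1 in 1 (-1.27 to 0.57). In SUM44, ESR1 rose in LTED-A (1.30) and LTED-B (1.25), and KRT8 fell in LTED-B (-1.05). GATA3 rose in LTED-A (1.08) and LTED-B (0.85) and FOXA1 in LTED-A (0.67), while CDH1 fell in LTED-B (-0.63). These calls of GATA3, FOXA1 and CDH1 were lost without SUM44F replicate 1. The summed level of 10 immune cell markers was 0.420 to 10.6 CPM, and 4 to 8 of them were at or under 3 counts in each group. LYZ, a lysozyme gene, rose in all 4 MM134 variants, to 9.23 to 10.3 CPM in LTED-A from 0.172 to 0.356 CPM in parental cells (log2 fold change 5.14), and by 2.69, 1.37 and 2.98 on the log2 scale in LTED-B, -D and -E. Of the 5 stromal markers, the endothelial gene PECAM1 rose in MM134 LTED-A (2.21), LTED-D (0.78) and LTED-E (1.46). VWF, the other endothelial gene, fell in LTED-A and LTED-E and rose in LTED-D (-2.09 to 1.95 over the 4 variants). The collagen gene COL1A1 fell in all 4 MM134 variants (-1.59 to -0.75). The stromal sum was 22.2 to 27.5 CPM in MM134 parental cells and 10.7 to 21.7 CPM in the variants.

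In SUM44, the stromal sum was higher in each SUM44F library (32.9 to 170 CPM) than in any library of SUM44PE (19.6 to 21.2 CPM), LTED-A (7.28 and 9.64 CPM) or LTED-B (11.2 to 12.4 CPM). PECAM1 was at 27.3, 26.8 and 21.7 CPM in SUM44F, 7.40 to 8.37 CPM in SUM44PE and 1.77 to 3.91 CPM in the variants, and it fell in LTED-A (-3.70, and -3.64 without SUM44F replicate 1) and in LTED-B (-2.90 and -2.85). The stromal sum and PECAM1 were thus lower in the SUM44 variants beside the falls of HLA-B, HLA-E and B2M, also without that library. In SUM44F replicates 2 and 3, PECAM1 made up most of that sum (26.8 of 39.4 and 21.7 of 32.9 CPM). VWF fell without SUM44F replicate 1 (-2.19 in LTED-A and -2.78 in LTED-B). COL1A1 in these 2 libraries (7.11 and 5.77 CPM) lay below SUM44PE (8.23 to 8.57) and overlapped the variants (4.02 to 7.81). COL1A2 was at 0.918 and 1.06 CPM, against 0.447 to 0.914 in the variants. PDGFRB (0.195 and 0.323 CPM) overlapped them (0 to 0.346). SUM44F replicate 1 stood apart from the other 2 SUM44F libraries. Its 5 stromal markers summed to 170 CPM against 39.4 and 32.9 CPM, COL1A1 was at 85.9 CPM against 7.11 and 5.77, the immune markers summed to 6.75 CPM against 0.703 and 0.947, and the leukocyte marker PTPRC was at 2.60 CPM against 0.332 and 0.423. For the 9 genes, calls against SUM44F are therefore also given without this library. Of the listed genes named below as rising or falling in a SUM44 variant, the calls lost without it were those of CIITA (-0.75), SOCS1 (-1.59) and FCGRT (-0.68) in LTED-A and PSMB10 (-0.66) in LTED-B. The part of these markers in the results was not tested, and in bulk RNA fewer cells of a type and less RNA per cell cannot be told apart.

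Levels are given as CPM after TMM normalization over all libraries, with mean ± SD. A gene is said to have risen or fallen when it passed both thresholds of the study, a change of more than 1.5-fold and an adjusted p under 0.001 (edgeR quasi-likelihood F-test, Benjamini-Hochberg over all genes tested). Comparisons within a cell line share the parental libraries, so that their results are not independent of each other. HLA-B, HLA-C and HLA-E have near-identical relatives, and the reference holds 1 allele of each. Between MM134 and SUM44, the match of a line's alleles to that reference and the amount of RNA cannot be told apart, and the HLA levels are uncertain to that extent.

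In MM134 cells, the genes of the pathway moved in both directions. HLA-E, B2M and the transporter genes were higher in the LTED libraries than in parental cells, NLRC5 was lower, and HLA-B and HLA-C fell in some variants. In LTED-A, 4 of the 9 genes rose and 1 fell, where 20.3% of the 26061 genes tested passed (10.5% rose and 9.82% fell). In LTED-B 2 rose and 2 fell, where 15.9% of all genes passed (8.11% rose and 7.75% fell). LTED-D showed 5 that rose and 1 that fell, against 17.6% of all genes (9.63% and 7.95%), and LTED-E showed 5 that rose and 3 that fell, against 19.0% (8.71% and 10.3%). The median log2 fold changes of the 9 genes were 0.49, 0.42, 0.73 and 0.77 in LTED-A, -B, -D and -E, where the medians of all genes tested were -0.01, 0.02, -0.03 and 0.02.

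In SUM44 cells, none of the 9 genes rose in either variant, where 6.39% of 26834 genes rose in LTED-A and 8.69% in LTED-B. In LTED-A 2 fell, where 13.7% of all genes passed and 7.28% fell, and in LTED-B 3 fell, where 17.3% passed and 8.57% fell. The median log2 fold changes were -0.25 in LTED-A and -0.60 in LTED-B, where all genes had medians of -0.06 and -0.09. Without SUM44F replicate 1 the same 2 and 3 genes fell, HLA-E and B2M in LTED-A and HLA-B, HLA-E and B2M in LTED-B.

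**Figure D1:**
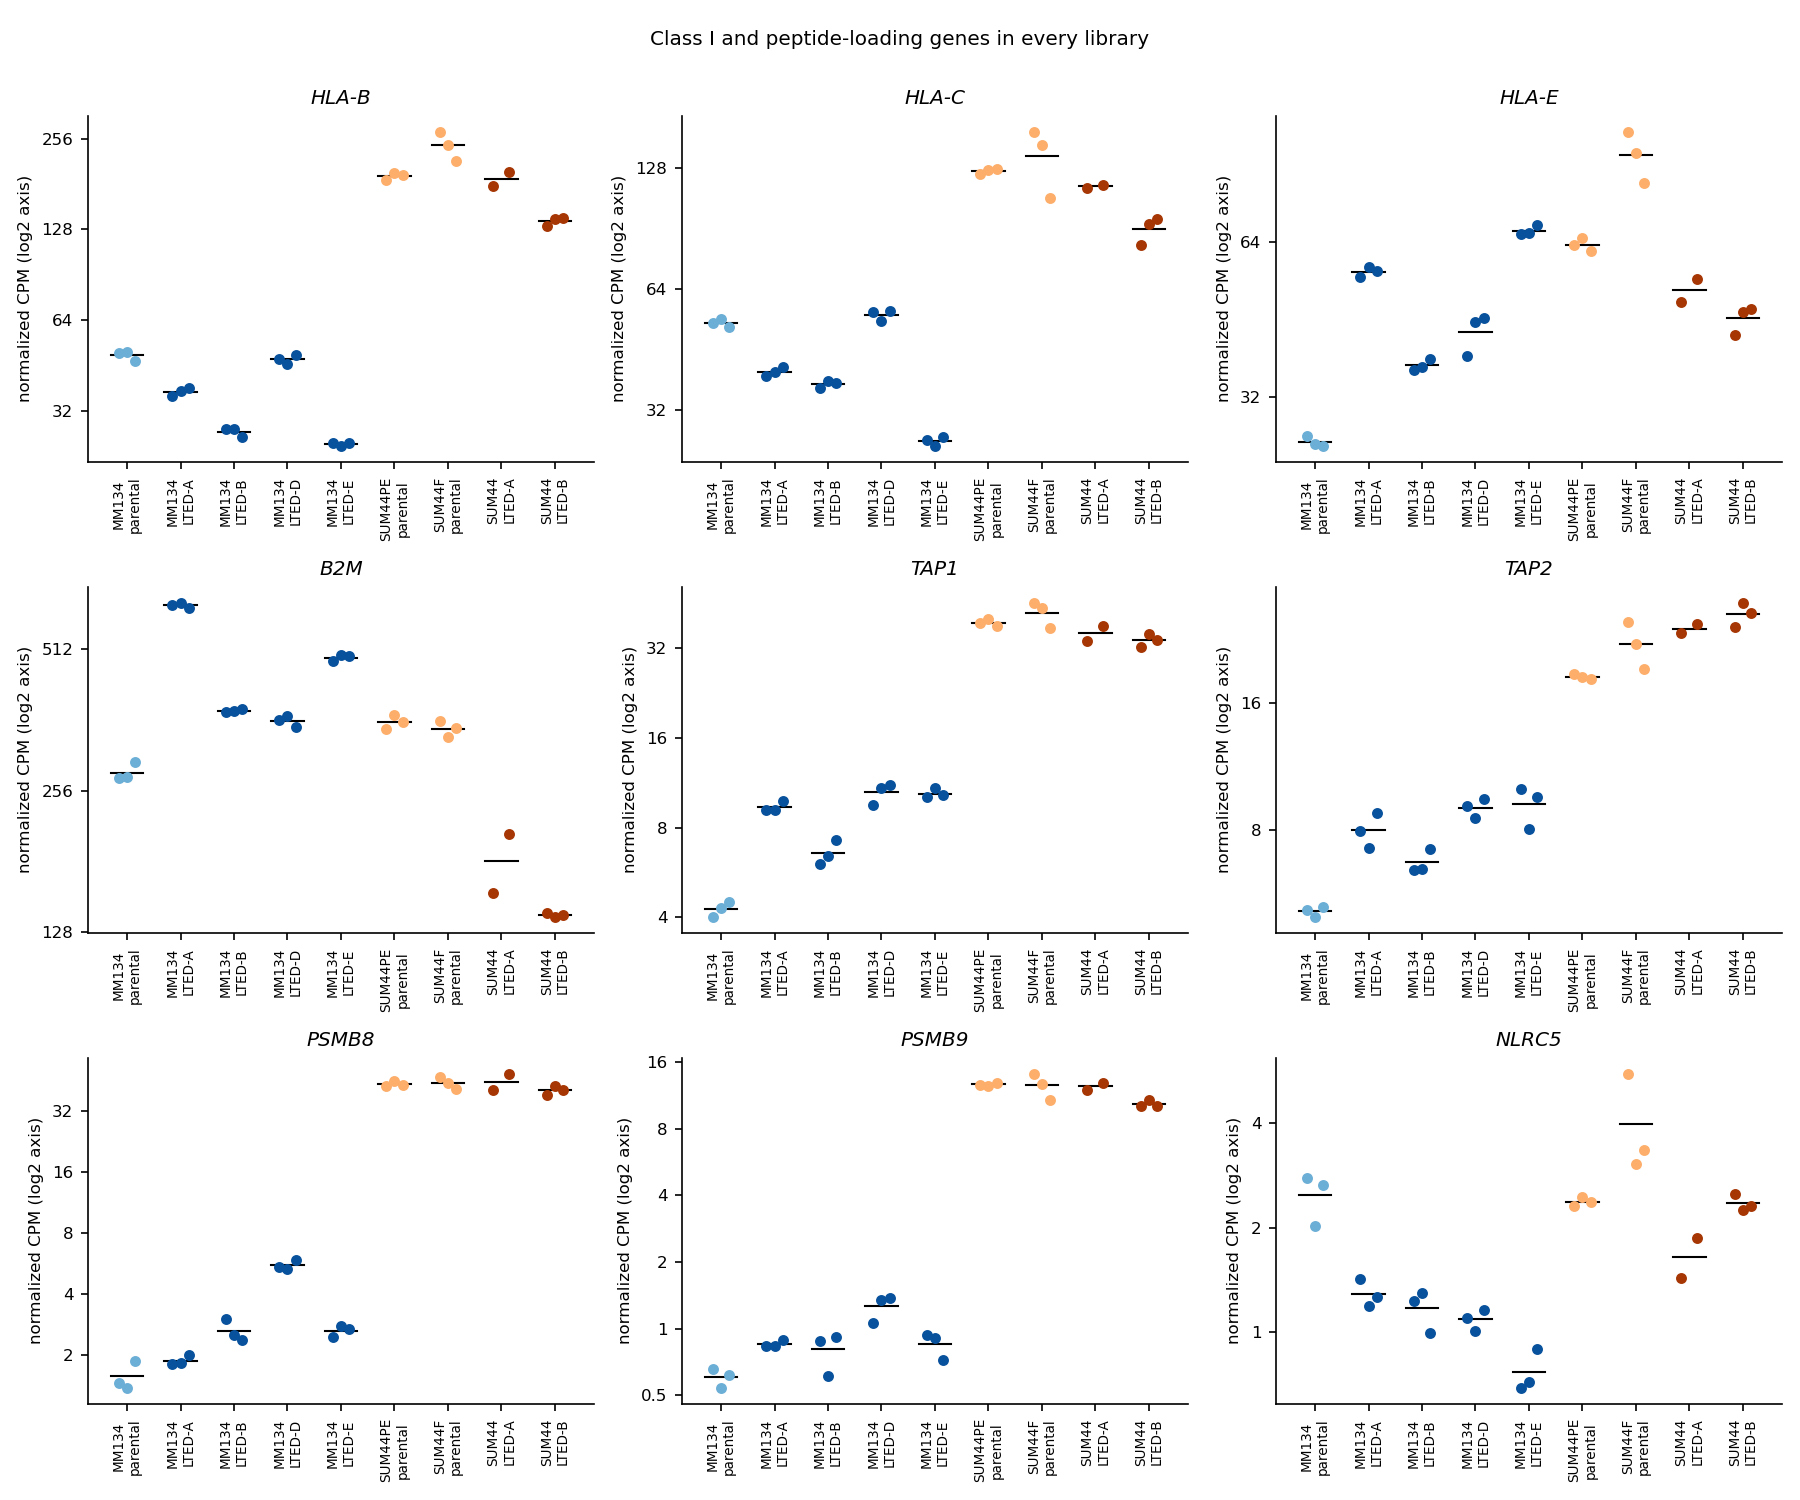
Levels of the 9 genes in each library (points; CPM on a log axis) by group, with the group mean as a horizontal line; SUM44 LTED-A has 2 points because replicates 2 and 3 were averaged. B2M lay at 272 to 641 CPM in MM134 libraries and at 138 to 370 CPM in SUM44, whereas PSMB8 and PSMB9 lay below 6 CPM in MM134 and above 10 CPM in every SUM44 library.

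**Figure D2:**
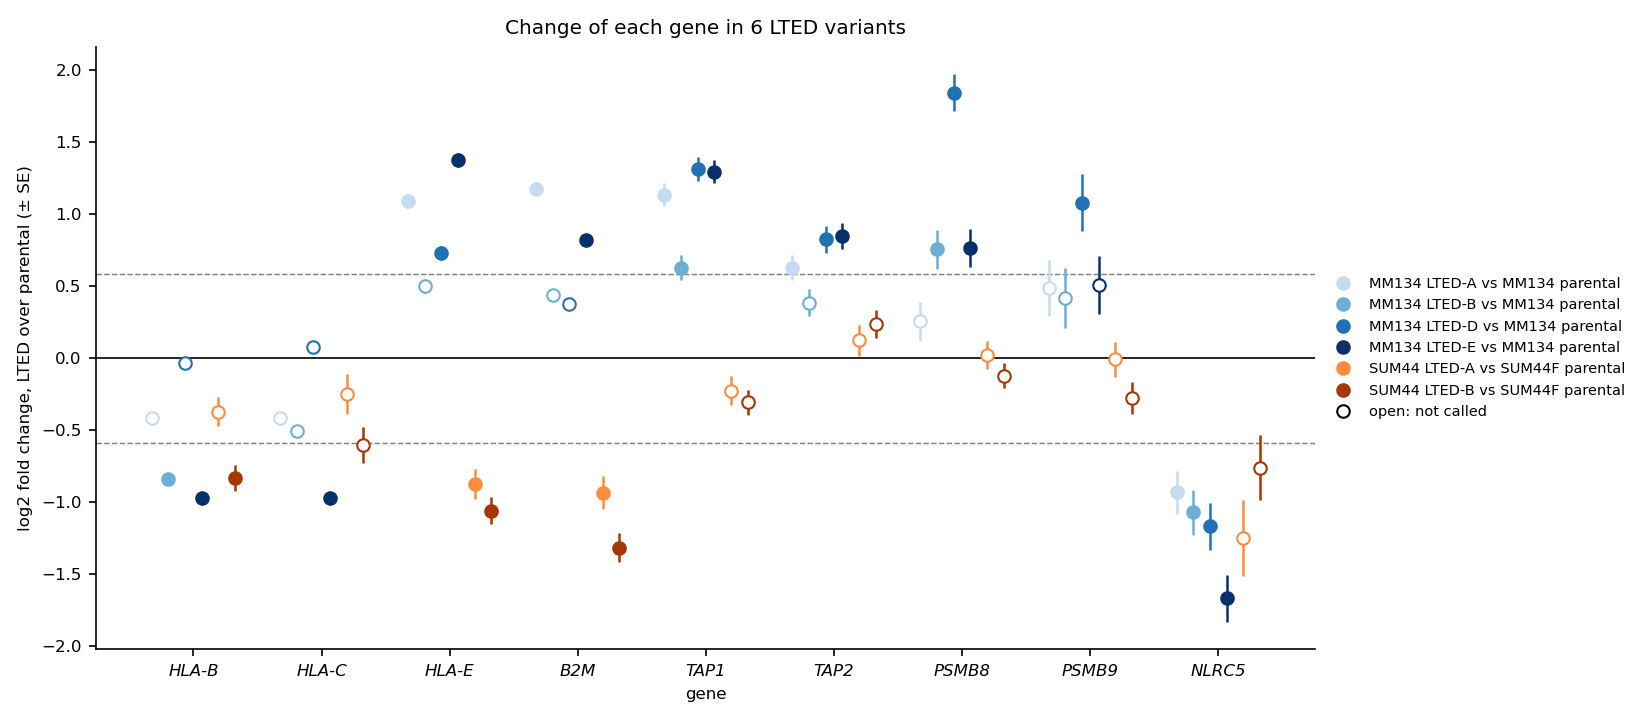
Log2 fold change of each of the 9 genes in each LTED variant against its parental culture, with the standard error as a bar, filled points for changes past both thresholds, open points for the others and dashed lines at 1.5-fold. HLA-E, B2M and TAP1 lie above 0 in the 4 MM134 variants and below 0 in the 2 SUM44 variants, while NLRC5 lies below 0 in all 6.

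HLA-B (ENSG00000234745, chromosome 6, 31353872 to 31367067, minus strand, hg38) encodes a classical heavy chain that presents peptides to T cells. Its levels were 49.7, 50.1 and 46.9 CPM in MM134 parental libraries, 35.6, 37.1 and 38.1 in LTED-A, 27.8, 27.8 and 26.1 in LTED-B, 47.6, 45.6 and 49.0 in LTED-D and 25.0, 24.4 and 24.9 in LTED-E. LTED-B and LTED-E were the low variants, with no overlap with parental cells, and LTED-D overlapped them. HLA-B fell to 0.558 times the parental level in LTED-B (log2 fold change -0.84, SE of 0.04, adjusted p = 2.15e-12) and to 0.510 times in LTED-E (-0.97, SE of 0.04, adjusted p = 1.89e-13). The difference in LTED-A (-0.41, adjusted p = 2.5e-08) was below the fold minimum although its libraries did not overlap with the parental ones, and in LTED-D it was -0.03 (adjusted p = 0.527).

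In SUM44 cells HLA-B was at 270, 244 and 216 CPM in SUM44F, 187, 197 and 194 in SUM44PE, 178 and 198 in LTED-A and 131, 139 and 140 in LTED-B. All LTED libraries were below all SUM44F libraries. HLA-B fell in LTED-B (-0.83, SE of 0.09, adjusted p = 3.32e-05, and -0.76 without SUM44F replicate 1), whereas in LTED-A the log2 difference was -0.37 (SE of 0.10, adjusted p = 0.0154). The HLA-B gene also overlaps a pseudogene on the opposite strand (ENSG00000271581), with group means of 0.06 to 0.72 CPM, and one on the same strand (DHFRP2, ENSG00000228432), which was below 0.05 CPM in every library.

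HLA-C (ENSG00000204525, chromosome 6, 31268749 to 31272130, minus strand), the other classical heavy chain among the 9, is also a ligand of inhibitory receptors on NK cells. Its levels in MM134 parental libraries were 52.7, 54.0 and 51.5 CPM, in LTED-A 38.7, 39.8 and 40.8, in LTED-B 36.3, 37.7 and 37.2, in LTED-D 56.0, 53.1 and 56.4 and in LTED-E 26.8, 25.9 and 27.3. LTED-E was lowest, and LTED-D overlapped the parental libraries. HLA-C fell in LTED-E to 0.510 times the parental level (-0.97, SE of 0.03, adjusted p = 2.27e-14). LTED-A, at -0.42, and LTED-B, at -0.50, were below the fold minimum (adjusted p = 3.13e-09 and 3.67e-10), and LTED-D differed by 0.08 (adjusted p = 0.0618).

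HLA-C in SUM44 was at 158, 146 and 108 CPM in SUM44F, 124, 127 and 128 in SUM44PE, 114 and 117 in LTED-A and 82.2, 92.8 and 95.9 in LTED-B. The SUM44F libraries were widely spread and overlapped LTED-A. Neither variant passed the test, with log2 differences of -0.25 (LTED-A, SE of 0.14, adjusted p = 0.201) and -0.60 (LTED-B, SE of 0.12, adjusted p = 0.00259). In LTED-B the call depended on SUM44F replicate 3, the lowest of its group, without which the difference was -0.75 (adjusted p = 7.98e-05). HLA-B and HLA-C moved alike over the 9 groups, with r = 0.947 between their deviations from the mean of the cell line (a description over 9 groups that share libraries and normalization).

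HLA-E (ENSG00000204592, chromosome 6, 30489509 to 30494194, plus strand) presents leader peptides of other class I chains to the CD94-NKG2 receptors of NK cells. In MM134 cells its levels were 26.9, 25.9 and 25.7 CPM in parental libraries, 54.8, 57.2 and 56.3 in LTED-A, 36.2, 36.6 and 37.9 in LTED-B, 38.4, 44.7 and 45.5 in LTED-D and 66.4, 66.8 and 69.3 in LTED-E. Every LTED library lay above every parental library. HLA-E rose 2.14-fold in LTED-A (1.10, SE of 0.05, adjusted p = 6.05e-13), 1.66-fold in LTED-D (0.73, SE of 0.05, adjusted p = 4.65e-10) and 2.60-fold in LTED-E (1.38, SE of 0.05, adjusted p = 2.27e-14). In LTED-B the difference was 1.41-fold and so below the fold minimum (0.50, adjusted p = 1.02e-07).

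In SUM44 cells the parental culture was the high one. HLA-E was at 105, 95.6 and 83.7 CPM in SUM44F, 63.3, 65.4 and 61.5 in SUM44PE, 49.0 and 54.4 in LTED-A and 42.3, 46.7 and 47.5 in LTED-B, so that the SUM44F libraries were the highest of all groups and did not overlap with the variants. HLA-E fell to 0.546 times the SUM44F level in LTED-A (-0.87, SE of 0.10, adjusted p = 7.88e-05) and to 0.480 times in LTED-B (-1.06, SE of 0.09, adjusted p = 6.24e-06). Without SUM44F replicate 1 the values were -0.79 and -0.98, and without LTED-A replicate 1, which leaves 1 LTED-A sample assumed to vary like the others, the LTED-A value was -0.76 and no longer passed (adjusted p = 0.00298). HLA-E was also the 1 gene of the 9 that differed between the SUM44 parental cultures, where 5.57% of 27457 genes did (2.85% were higher and 2.72% lower in SUM44PE). Its difference (-0.59, SE of 0.09, adjusted p = 0.00025) was close to the fold minimum, and this call was lost without SUM44F replicate 1 (-0.50, adjusted p = 0.000789) and under several settings.

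B2M (ENSG00000166710, chromosome 15, 44711358 to 44718851, plus strand) encodes the light chain shared by class I molecules. Its levels were 272, 273 and 294 CPM in MM134 parental libraries, 635, 641 and 623 in LTED-A, 376, 377 and 381 in LTED-B, 361, 368 and 349 in LTED-D and 481, 496 and 493 in LTED-E. All LTED libraries lay above the parental ones. B2M rose 2.26-fold in LTED-A (1.17, SE of 0.03, adjusted p = 3.88e-16) and 1.77-fold in LTED-E (0.82, SE of 0.03, adjusted p = 8.1e-14). The differences of 1.36-fold in LTED-B and 1.30-fold in LTED-D were below the fold minimum, with adjusted p of 1.01e-09 and 8.68e-09.

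In SUM44 cells B2M stood at 360, 332 and 347 CPM in SUM44F, 346, 370 and 357 in SUM44PE, 155 and 207 in LTED-A and 140, 138 and 139 in LTED-B. Both variants were below both parental cultures, which overlapped each other. B2M fell to 0.523 times the SUM44F level in LTED-A (-0.93, SE of 0.12, adjusted p = 0.000103) and to 0.402 times in LTED-B (-1.32, SE of 0.10, adjusted p = 2.73e-06), with -0.91 and -1.29 in the fits without SUM44F replicate 1. When SUM44F and LTED-A were fitted on their own, the LTED-A value was -0.92 and did not pass (adjusted p = 0.00265).

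Relative to the classical heavy chains, B2M was higher in every MM134 variant than in parental cells. The ratio of B2M to HLA-B plus HLA-C, each as CPM per kilobase of its canonical transcript, was 4.49 ± 0.330 (SD, n = 3) in MM134 parental cells, 13.5 ± 0.532 in LTED-A, 9.60 ± 0.204 in LTED-B, 5.72 ± 0.345 in LTED-D and 15.5 ± 0.487 in LTED-E. The same ratio was 1.5 ± 0.209 in SUM44F, 1.83 ± 0.0278 in SUM44PE, 0.969 ± 0.144 (n = 2) in SUM44 LTED-A and 1.00 ± 0.0604 in SUM44 LTED-B. HLA-E relative to HLA-B plus HLA-C, on the same per-length scale, went from 0.155 in MM134 parental cells to 0.442, 0.347, 0.253 and 0.792 in LTED-A, -B, -D and -E, and was 0.103 to 0.151 in the 4 SUM44 groups. These ratios were not tested.

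**Figure D3:**
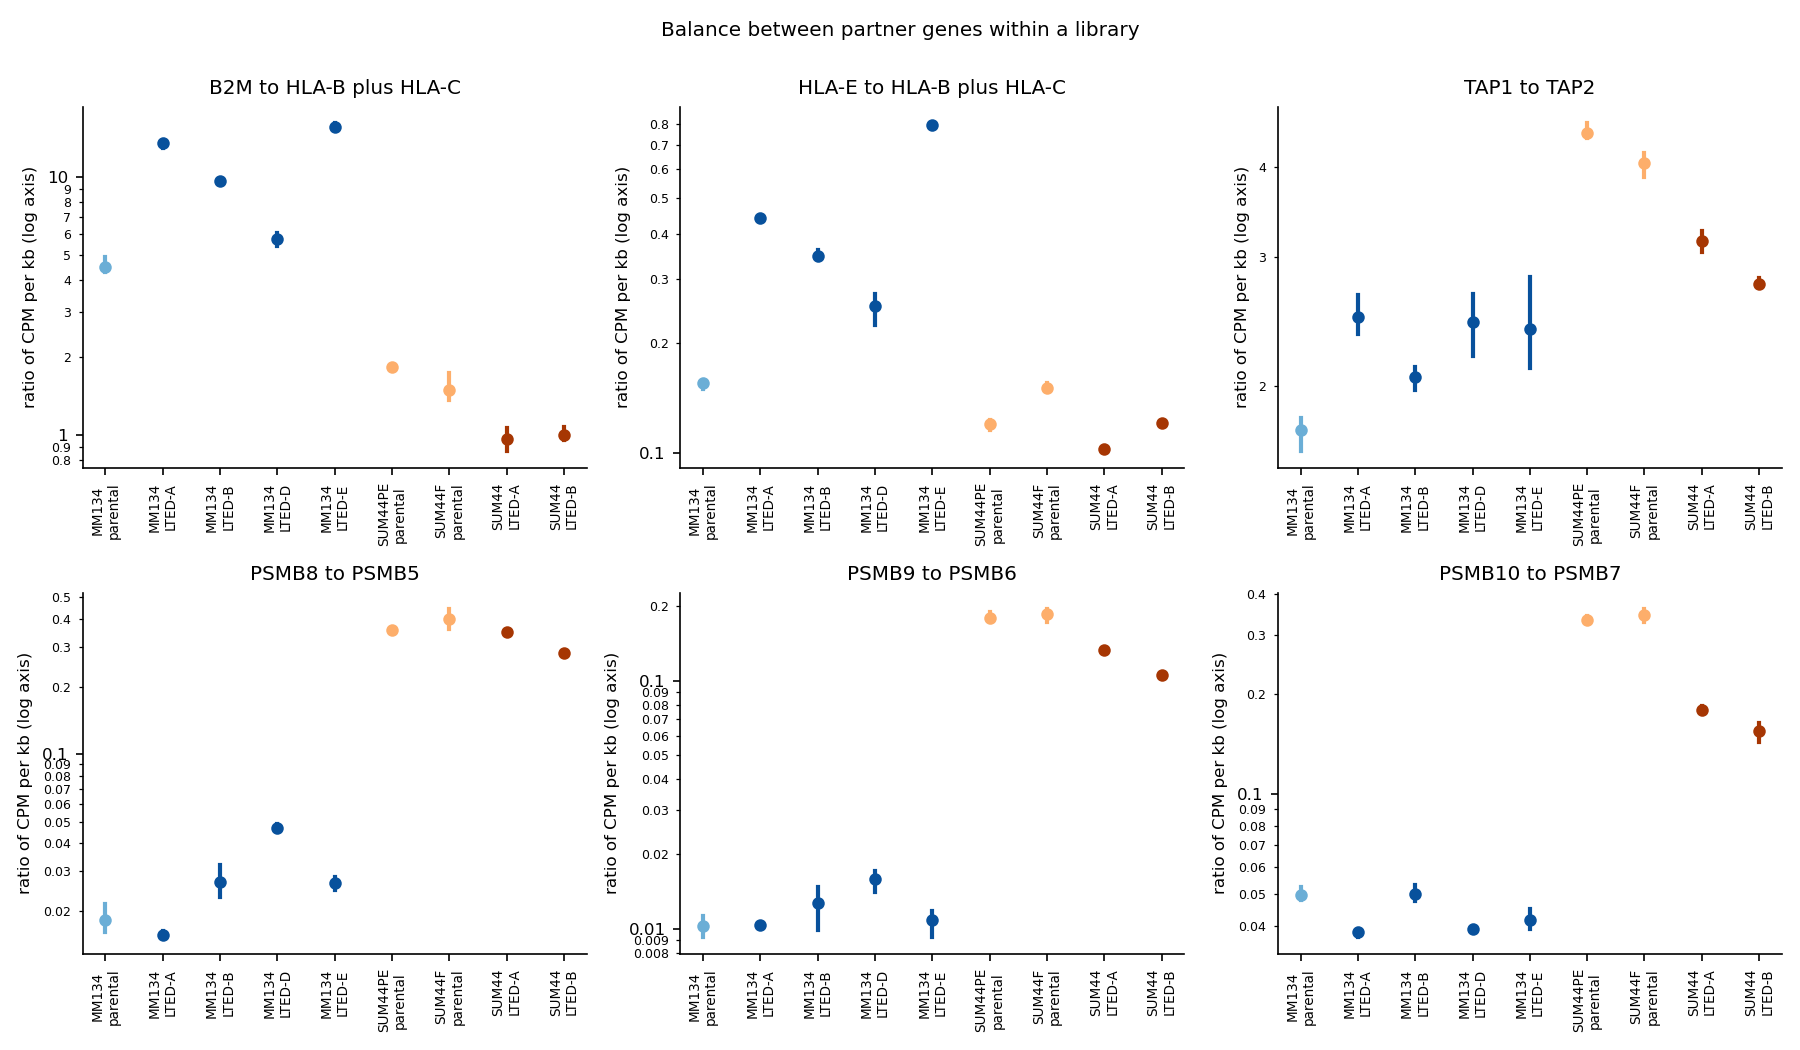
Ratios between partner genes, from levels per kilobase of transcript, by group on log axes, with the group mean as a point and the range over libraries as a bar. The ratio of B2M to HLA-B plus HLA-C ranged over the MM134 variants from 5.72 in LTED-D to 15.5 in LTED-E, and the immunoproteasome subunits stood in a higher ratio to their constitutive partners in SUM44 than in MM134 cells.

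TAP1 (ENSG00000168394, chromosome 6, 32845209 to 32853816, minus strand) and TAP2 (ENSG00000204267, chromosome 6, 32821833 to 32838739, minus strand) encode the chains of the peptide transporter. TAP1 was at 4.0, 4.29 and 4.50 CPM in MM134 parental libraries, 9.20, 9.19 and 9.84 in LTED-A, 6.03, 6.42 and 7.29 in LTED-B, 9.52, 10.9 and 11.1 in LTED-D and 10.1, 10.8 and 10.3 in LTED-E. No LTED library overlapped the parental range, and LTED-B was the lowest of the variants. TAP1 rose in all 4, by 2.20-fold in LTED-A (1.14, SE of 0.08, adjusted p = 6.06e-10), 1.55-fold in LTED-B (0.63, SE of 0.08, adjusted p = 4.63e-06), 2.49-fold in LTED-D (1.32, SE of 0.08, adjusted p = 1.26e-10) and 2.46-fold in LTED-E (1.30, SE of 0.08, adjusted p = 1.12e-10). The LTED-B value lay just past the fold minimum and was 0.55, and so below it, without LTED-B replicate 3.

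TAP2 was at 5.18, 4.99 and 5.28 CPM in MM134 parental libraries, 7.95, 7.26 and 8.78 in LTED-A, 6.43, 6.49 and 7.21 in LTED-B, 9.10, 8.53 and 9.48 in LTED-D and 10.0, 8.07 and 9.58 in LTED-E. It was again higher in every LTED library than in any parental one. TAP2 rose in LTED-A (0.63, SE of 0.09, adjusted p = 7.08e-06, but 0.57 and below the fold minimum without LTED-A replicate 3), in LTED-D (0.83, SE of 0.09, adjusted p = 3.62e-07) and in LTED-E (0.85, SE of 0.09, adjusted p = 1.88e-07), and the LTED-B difference was 0.39 (adjusted p = 0.00188). The per-length ratio of TAP1 to TAP2 was 1.74 ± 0.101 (SD, n = 3) in parental cells and 2.06 to 2.48 in the variants.

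The transporter genes did not pass the test in SUM44 cells. TAP1 was at 45.6, 43.7 and 37.4 CPM in SUM44F, 38.9, 40.2 and 38.0 in SUM44PE, 34.0 and 38.0 in LTED-A and 32.3, 35.8 and 34.2 in LTED-B, with log2 differences from SUM44F of -0.23 (adjusted p = 0.105) in LTED-A and -0.31 (adjusted p = 0.0163) in LTED-B. TAP2 was at 24.8, 22.0 and 19.3 CPM in SUM44F, 18.7, 18.4 and 18.2 in SUM44PE, 23.4 and 24.5 in LTED-A and 24.2, 27.6 and 26.1 in LTED-B, with 0.12 (adjusted p = 0.424) and 0.24 (adjusted p = 0.0708). TAP2 overlapped between SUM44F and both variants. Its reads may be shared with a read-through gene on the same strand (ENSG00000250264, 0.52 to 1.64 CPM).

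PSMB8 (ENSG00000204264, chromosome 6, 32840717 to 32844679, minus strand) and PSMB9 (ENSG00000240065, chromosome 6, 32844136 to 32859851, plus strand) encode catalytic subunits of the immunoproteasome, which shapes the peptides offered to class I molecules. PSMB8 was low in MM134 cells, at 1.46, 1.38 and 1.88 CPM in parental libraries (51 to 58 counts), 1.80, 1.82 and 2.01 in LTED-A, 3.02, 2.5 and 2.36 in LTED-B, 5.46, 5.31 and 5.92 in LTED-D and 2.45, 2.78 and 2.68 in LTED-E. LTED-A overlapped the parental range, and LTED-D stood above all other MM134 groups. PSMB8 rose 3.59-fold in LTED-D (1.85, SE of 0.13, adjusted p = 5.05e-10), 1.69-fold in LTED-B (0.76, SE of 0.13, adjusted p = 0.000107) and 1.70-fold in LTED-E (0.77, SE of 0.13, adjusted p = 7.6e-05), and its difference in LTED-A did not pass (0.26, adjusted p = 0.121). The LTED-B call was lost without parental replicate 2 (0.67, adjusted p = 0.00124) and when those 2 groups were fitted on their own (0.74, adjusted p = 0.00323).

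PSMB9 was lower still, at 0.658, 0.540 and 0.616 CPM in MM134 parental libraries (19 to 23 counts), 0.832, 0.836 and 0.893 in LTED-A, 0.882, 0.614 and 0.920 in LTED-B, 1.07, 1.35 and 1.37 in LTED-D and 0.939, 0.911 and 0.719 in LTED-E. LTED-D was again the highest variant. PSMB9 rose 2.12-fold in LTED-D (1.08, SE of 0.20, adjusted p = 0.000125), a call lost without parental replicate 2 (1.00, adjusted p = 0.00125) or without LTED-D replicate 3 (1.02, adjusted p = 0.00103). The differences in LTED-A (0.49, adjusted p = 0.0417), LTED-B (0.42, adjusted p = 0.123) and LTED-E (0.51, adjusted p = 0.047) did not pass.

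In SUM44 cells neither immunoproteasome gene passed the test in either variant. PSMB8 was at 47.3, 44 and 41.4 CPM in SUM44F, 42.7, 45.3 and 43.0 in SUM44PE, 40.7 and 49.0 in LTED-A and 38.7, 42.5 and 40.8 in LTED-B. PSMB9 was at 14.2, 12.7 and 10.8 CPM in SUM44F, 12.6, 12.5 and 12.9 in SUM44PE, 12 and 12.9 in LTED-A and 10.1, 10.8 and 10.1 in LTED-B. SUM44F overlapped both variants for both genes. The log2 differences were 0.02 in LTED-A and -0.12 in LTED-B for PSMB8 (adjusted p = 0.874 and 0.274), and -0.01 and -0.28 for PSMB9 (adjusted p = 0.975 and 0.066). PSMB8, PSMB9 and TAP1 each overlap in exons with the gene PSMB8-AS1 (0.15 to 0.20 CPM in MM134 and 1.08 to 1.77 CPM in SUM44 groups). PSMB8 and PSMB9 also overlap each other in exons, while TAP1 and PSMB9 overlap only outside them. Since the strand setting of the counting was not stated, reads in the exon overlaps cannot be told apart with certainty.

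Immunoproteasome subunits stood in a higher ratio to their constitutive counterparts in SUM44 than in MM134 cells. PSMB8 per length was 0.356 and 0.400 times PSMB5 in SUM44PE and SUM44F, and 0.349 and 0.283 times in SUM44 LTED-A and LTED-B. In MM134 cells the ratio was 0.0183 in parental cells, 0.0157 in LTED-A, 0.0270 in LTED-B, 0.0470 in LTED-D and 0.0265 in LTED-E. PSMB9 relative to PSMB6 was 0.0103 in MM134 parental cells and 0.0158 in LTED-D, the highest of the variants, against 0.106 to 0.186 in SUM44 groups. A further immunosubunit gene, PSMB10, relative to PSMB7 was 0.0383 to 0.050 in MM134 groups, and 0.335, 0.345, 0.179 and 0.155 in SUM44PE, SUM44F, SUM44 LTED-A and SUM44 LTED-B.

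NLRC5 (ENSG00000140853, chromosome 16, 56989485 to 57083531, plus strand), the class I co-activator, was lower in every LTED variant than in its parental culture, at 28 to 301 counts per library. Its levels were 2.77, 2.02 and 2.66 CPM in MM134 parental libraries, 1.42, 1.19 and 1.26 in LTED-A, 1.23, 1.30 and 0.995 in LTED-B, 1.10, 1.01 and 1.16 in LTED-D and 0.692, 0.720 and 0.894 in LTED-E. No LTED library reached the lowest parental one. NLRC5 fell to 0.524 times the parental level in LTED-A (-0.93, SE of 0.15, adjusted p = 2.48e-05), 0.477 in LTED-B (-1.07, SE of 0.16, adjusted p = 1.27e-05), 0.445 in LTED-D (-1.17, SE of 0.16, adjusted p = 5.72e-06) and 0.315 in LTED-E (-1.67, SE of 0.16, adjusted p = 6.57e-08). In these 4 variants a fall of NLRC5 stood beside a rise of TAP1.

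In SUM44 cells NLRC5 was at 5.55, 3.05 and 3.35 CPM in SUM44F, 2.31, 2.45 and 2.37 in SUM44PE, 1.43 and 1.87 in LTED-A and 2.5, 2.25 and 2.30 in LTED-B. The 5.55 CPM belongs to SUM44F replicate 1, the library with the high stromal and immune markers. The log2 differences of -1.25 in LTED-A (SE of 0.26, adjusted p = 0.00348) and -0.76 in LTED-B (SE of 0.23, adjusted p = 0.0192) did not pass, and without that library they were -0.94 (adjusted p = 0.00344) and -0.45 (adjusted p = 0.0577).

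The cell lines also started from different levels. Between the parental cultures, 7 of the 9 genes were lower in MM134 than in SUM44F and none was higher, where 38.1% of 29608 genes differed (19.0% were lower and 19.1% higher). The differences were largest for PSMB8, at 0.0353 times the SUM44F level (-4.82, SE of 0.10, adjusted p = 3.2e-22), PSMB9 at 0.0484 times (-4.37, SE of 0.14, adjusted p = 1.14e-18) and TAP1 at 0.101 times (-3.31, SE of 0.09, adjusted p = 1.37e-20). HLA-B, TAP2, HLA-E and HLA-C followed at -2.32, -2.09, -1.86 and -1.38, while B2M (-0.31, adjusted p = 0.000145, below the fold minimum) and NLRC5 (-0.68, adjusted p = 0.00187) did not pass. Without SUM44F replicate 1 the same 7 genes were lower, at -4.77 for PSMB8 to -1.27 for HLA-C. Without SUM44F replicate 2 or replicate 3 the NLRC5 difference passed, at -0.83 and -0.81.

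Ranked over the 9 groups, HLA-B, HLA-C, TAP1, TAP2, PSMB8 and PSMB9 were higher in each of the 4 SUM44 groups than in any MM134 group. The gap between the lowest SUM44 group and the highest MM134 group was 3.03 on the log2 scale for PSMB9, 2.87 for PSMB8, 1.70 for TAP1, 1.48 for HLA-B, 1.00 for TAP2 and 0.71 for HLA-C, and passed both thresholds for each of them. The pair of groups was SUM44 LTED-B and MM134 LTED-D for PSMB9, PSMB8, TAP1 and HLA-C (31.9% of all genes passed between them), SUM44 LTED-B and MM134 parental cells for HLA-B (34.8%), and SUM44PE and MM134 LTED-E for TAP2 (37.6%). B2M ran in another order. It was highest in MM134 LTED-A, LTED-E, LTED-B and LTED-D, then came SUM44PE, SUM44F and MM134 parental cells, and the SUM44 variants were lowest, with a gap of 0.62 between MM134 parental cells and SUM44 LTED-A that passed both thresholds (as did 34.7% of all genes). Within MM134, PSMB8 passed between LTED-D and LTED-E (1.08, where 9.51% of all genes did) and TAP1 between LTED-B and parental cells (13.3%). HLA-E was highest in SUM44F, followed by MM134 LTED-E, and was lowest in MM134 parental cells.

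Many neighbours in these orders could not be separated. Of the 8 neighbouring pairs of groups, those with an adjusted p of at least 0.05 numbered 3 for HLA-B, 4 for HLA-C, 4 for HLA-E, 3 for B2M, 5 for TAP1, 4 for TAP2, 5 for PSMB8, 6 for PSMB9 and 7 for NLRC5. For B2M these were MM134 LTED-B and LTED-D, LTED-D and SUM44PE, and SUM44PE and SUM44F. For HLA-E they were MM134 LTED-E and SUM44PE, MM134 LTED-A and SUM44 LTED-A, the 2 SUM44 variants, and SUM44 LTED-B and MM134 LTED-D. Among the 4 SUM44 groups no neighbouring pair had an adjusted p below 0.05 for TAP1, PSMB8 or PSMB9. For NLRC5 the 1 pair below 0.05 was SUM44F and MM134 parental cells.

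The mean LTED change was compared between the cell lines in 1 fit. The error of this test comes from the spread between wells, and the spread between the variants of a line does not enter it. The mean change was higher in MM134 than in SUM44 for 5 of the 9 genes and lower for none, where 21.0% of 29608 genes passed (10.9% were higher and 10.1% lower). The difference of log2 changes was 1.88 for HLA-E (SE of 0.08, adjusted p = 1.53e-15), 1.82 for B2M (SE of 0.08, adjusted p = 6.7e-16), 1.35 for TAP1 (SE of 0.10, adjusted p = 2.21e-11), 0.95 for PSMB8 (SE of 0.12, adjusted p = 6.01e-07) and 0.76 for PSMB9 (SE of 0.17, adjusted p = 0.000662). TAP2 differed by 0.48 (adjusted p = 0.000722), below the fold minimum. HLA-B (0.03), HLA-C (-0.03) and NLRC5 (-0.22) were not shown to differ, with adjusted p of 0.761, 0.841 and 0.45. The PSMB9 call was lost in 14 of the 23 fits that leave out 1 library, with values of 0.65 to 0.80 in those 14 and 0.75 to 0.84 in the other 9. Without SUM44F replicate 1 it was 0.66 (adjusted p = 0.00279), and the other 4 calls held at 1.80, 1.79, 1.30 and 0.90.

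Of 11 genes for peptide loading and trimming, 3, 3, 4 and 4 rose in MM134 LTED-A, -B, -D and -E and none fell, with list medians of 0.27, 0.12, 0.48 and 0.48, where 10.5, 8.11, 9.63 and 8.71% of all genes tested rose. These shares, and those of 9.82, 7.75, 7.95 and 10.3% that fell, also stand beside the counts of the lists that follow, as do 6.39 and 8.69% (rose) and 7.28 and 8.57% (fell) in the SUM44 variants A and B. HSPA5 and PDIA3, a general chaperone and a disulphide isomerase of the endoplasmic reticulum that serve many proteins beside class I, rose in all 4 (0.77 to 0.87 and 0.59 to 0.77). The others were CANX in LTED-A, CALR in LTED-B and LTED-E, TAPBP (tapasin) and TAPBPL in LTED-D, and the peptide-trimming enzyme gene ERAP2 in LTED-E (1.15). In SUM44 LTED-A (median 0.13) THOP1 rose (0.93) and ERAP1 (-0.92) and ERAP2 (-1.56) fell. In SUM44 LTED-B (median 0.30) HSPA5 (1.08), THOP1 (1.05), PDIA3 (0.85) and CALR (0.67) rose and TAPBP fell (-0.71).

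Of 8 proteasome genes, which are PSMB10, the activator subunits PSME1 to PSME3, constitutive subunits and the assembly factor POMP, none passed in MM134 (medians 0.05 to 0.28). POMP rose in SUM44 LTED-A (1.89), and PSMB10 fell in SUM44 LTED-B (-0.74), a call lost without SUM44F replicate 1 (-0.66) and without several other libraries. HLA-F, a further non-classical heavy chain, fell in SUM44 LTED-B (-1.99, adjusted p = 9.08e-06) and had log2 differences of -0.37 to 0.32 in the MM134 variants, none of which passed.

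Of 13 genes for transcription of class I genes, CIITA and IRF1 passed most often. CIITA, the class II counterpart of NLRC5, rose in MM134 LTED-A (1.62), LTED-D (1.16) and LTED-E (1.27) and was at -0.03 in LTED-B, and it fell by 0.79 in LTED-A and by 1.05 in LTED-B of SUM44. The SUM44 LTED-A call for CIITA was lost without any 1 of its samples, SUM44F replicate 1 included (-0.75). IRF1, an interferon-induced factor that binds the ISRE, fell in MM134 LTED-A (-0.90) and LTED-B (-1.10) and in both SUM44 variants (-1.06 and -1.31). RFXAP rose in MM134 LTED-A (0.78) and NFKB1 in LTED-E (0.72). The list medians were between -0.10 and 0.03 in the 6 variants.

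Of 8 genes for interferon receptors and their signal, IFNGR1, a chain of the receptor for interferon gamma, rose in the 4 MM134 variants (1.74, 0.60, 0.79 and 0.87) and fell in both SUM44 variants (-2.80 and -1.63). JAK1, a kinase that this receptor uses, fell in all 6 (-1.13 to -0.66). SOCS1, an inhibitor of that signal, fell in MM134 LTED-A (-2.39) and in both SUM44 variants (-1.57 and -2.10), and JAK2 fell in MM134 LTED-D (-0.69) and SUM44 LTED-A (-0.82). The IFNGR1 call in MM134 LTED-B lay just past the fold minimum (0.57 to 0.62 with 1 library left out). This call, the SOCS1 calls in MM134 LTED-A and SUM44 LTED-A and the JAK2 call in SUM44 LTED-A were lost without single libraries. The list medians were -0.17 to 0.00 in MM134, and in SUM44 they were -0.64 (LTED-A) and -0.51 (LTED-B).

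The mean LTED change of the 14 interferon response genes was higher in MM134 than in SUM44 for 9 and lower for none, where 10.9% of all genes were higher and 10.1% lower. Differences between the variants of a line were not tested. Of 13 tested in MM134, 8 rose in LTED-A (median 1.98), 4 in LTED-B (0.33), 4 in LTED-D with IRF9 falling (0.20), and 2 in LTED-E with IRF9 and UBE2L6 falling (-0.13), where 10.5, 8.11, 9.63 and 8.71% of all genes rose. BST2 (tetherin) rose in all 4, from 14.2 CPM in parental cells to 164, 81.0, 139 and 132 CPM. Of 14 tested in SUM44, 7 fell in LTED-A (median -1.78) and 8 in LTED-B (-2.16), where 7.28 and 8.57% of all genes fell, and none rose. The same 7 and 8 genes fell without SUM44F replicate 1 (medians -1.74 and -2.06). Between the parental cultures, 4 of the 14 were lower in SUM44PE than in SUM44F and none was higher (median -0.38). Of all genes, 2.72% were lower and 2.85% higher in SUM44PE. OAS1 was at 359 CPM in SUM44F and at 40.5 and 31.2 CPM in the variants.

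**Figure D4:**
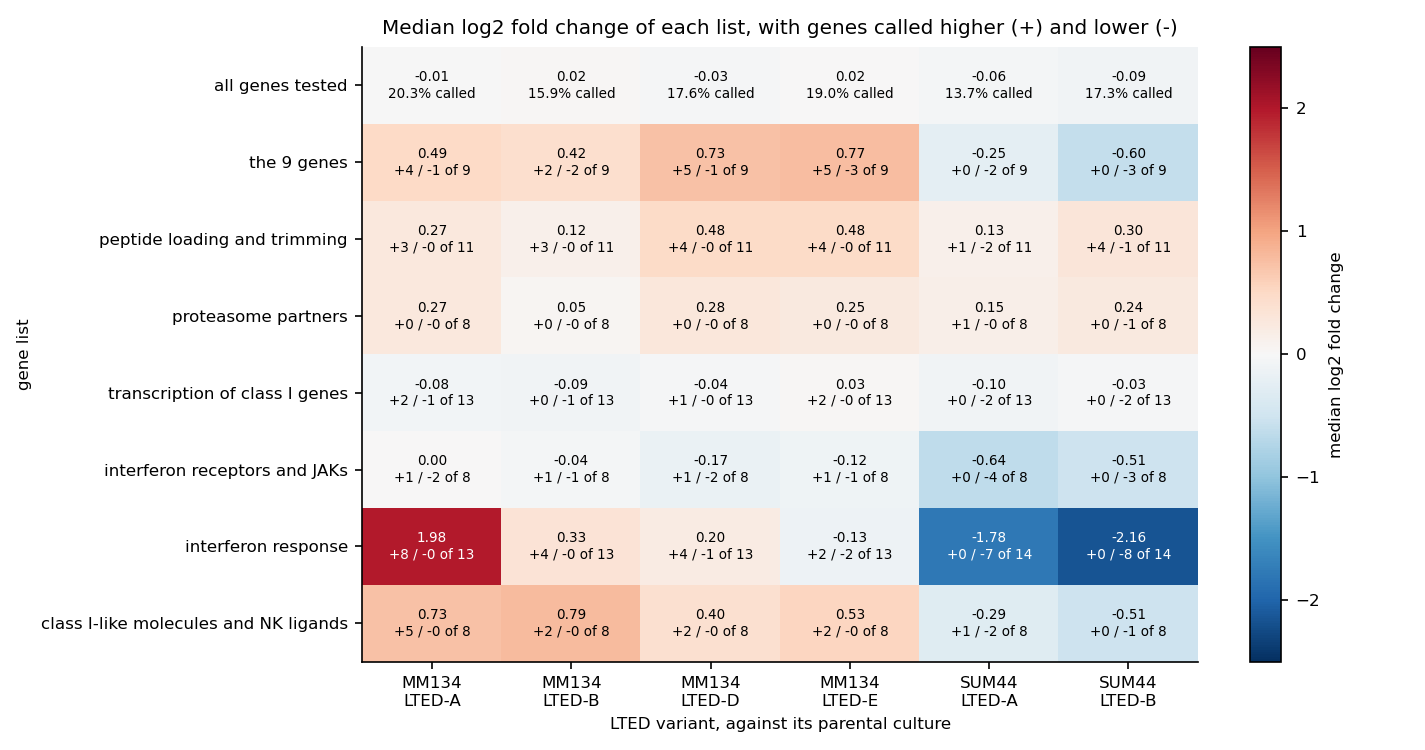
Median log2 fold change of the 9 genes and of the lists of related genes in each LTED variant against its parental culture, with the number called higher (+) and lower (-) of the number tested. The interferon response list ranged from 1.98 in MM134 LTED-A to -2.16 in SUM44 LTED-B, while the medians of all genes tested lay between -0.09 and 0.02.

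Of 10 class I-like molecules and ligands of NK receptors, 8 were tested in each cell line, with median log2 changes from 0.40 to 0.79 across the MM134 variants, and of -0.29 and -0.51 for SUM44 LTED-A and LTED-B. MR1, which presents vitamin metabolites to MAIT cells, rose in the 4 MM134 variants, from 5.11 CPM in parental cells to 16.4, 15.4, 13.6 and 18 CPM, and fell in SUM44 from 114 CPM in SUM44F to 13 and 10.6 CPM. The others that rose in MM134 were MICA (LTED-A and LTED-E), FCGRT (LTED-B and LTED-D), and ULBP3, ULBP1 and RAET1E (LTED-A), of which the ULBP3 and ULBP1 calls were lost without single libraries. In SUM44 LTED-A, MICB rose (1.35) and FCGRT fell (-0.77).

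The study's own pathway list for antigen presentation was chosen on these libraries. It holds TAP1, TAP2, PSMB8, HLA-E, PDIA3, MR1 and CIITA for MM134, and B2M, HLA-E, HLA-F, MR1 and CIITA among others for SUM44, so that the directions of these genes are not independent evidence for it.

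Genes next to the members on their chromosomes were read as well, with 20 genes of at least 1 CPM on each side. The windows of the TAP and PSMB genes largely overlap and hold the other members of that group. Those of HLA-B and HLA-C likewise overlap and hold each other. Around the TAP and PSMB genes the median log2 fold change of the neighbours was 0.29 to 0.50 in the MM134 variants and -0.27 to -0.07 in the SUM44 variants. Around HLA-B and HLA-C it was -0.23 to -0.09 in MM134, 0.25 to 0.28 in SUM44 LTED-A and -0.25 to -0.15 in SUM44 LTED-B. Near B2M it was -0.05 to 0.06 in MM134 and 0.11 to 0.18 in SUM44. TAP1 lay above the median of its neighbours in each MM134 variant (1.14, 0.63, 1.32 and 1.30 in LTED-A, -B, -D and -E against 0.42, 0.36, 0.36 and 0.33). PSMB8 lay below that of its neighbours in LTED-A (0.26 against 0.50), and close to theirs were PSMB9 in LTED-A (0.49 against 0.43) and LTED-B (0.42 against 0.36) and TAP2 in LTED-B (0.39 against 0.32). The part of the region in the change of these genes was not tested.

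Likeness over the 9 groups was read as Pearson r of deviations from the cell line's mean over 14406 protein-coding genes, a description over 9 groups that share libraries. HLA-E was closest to ITGAM (0.959) and TNNT2 (0.957), and B2M to GALNT10 (0.973), APOD (0.972) and SWAP70 (0.967). TAP1 was closest to MYCBPAP (0.987), MON2 (0.981) and ABHD15 (0.972), and PSMB8 to TRAPPC6A (0.981), the interferon response gene OAS3 (0.968) and MMP23B (0.951). Among the genes most like TAP2 were UTP25 (0.979) and BAZ1A (0.978). PSMB9 was closest to MPV17L (0.977), MLXIP (0.945) and ARHGAP32 (0.941). NLRC5 was closest to DRAXIN (0.970), COL1A1 (0.963) and MARCKSL1 (0.957), of which COL1A1 is one of the stromal markers that stood apart in SUM44F replicate 1. HLA-B was closest to SAXO2 (0.970), HLA-C (0.947) and KIF5C (0.919), and HLA-C to SUSD3 (0.954), HLA-B (0.947) and SAXO2 (0.947). Among the 9, PSMB8 with PSMB9 (0.842), HLA-E with B2M (0.824), HLA-E with TAP1 (0.818) and TAP1 with TAP2 (0.763) were alike. NLRC5 ran against TAP2 (-0.667) and TAP1 (-0.535), and with HLA-B (0.629) and HLA-C (0.577).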

How the data were processed

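RNA-Seq libraries of 9 groups, 3 each, were made with a stranded total RNA kit and sequenced on an Illumina HiSeq. The authors quantified them with Salmon 0.6.0, using hg38 with the annotation of Ensembl release 82, and deposited estimated counts, which need not be whole, for 60619 genes. Trimming and the strand setting are not given in the sources used here. Gene symbols were taken from GENCODE v44 by Ensembl ID (56434 genes matched).

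After rounding to whole numbers and removal of low genes by filterByExpr, TMM factors were computed and two-sided quasi-likelihood F-tests were run in edgeR 4.0.16 under R 4.3.3, with p-values adjusted after Benjamini and Hochberg. MM134 groups had 1 fit, SUM44F and its variants another, 1 more added SUM44PE, and a last one of all 9 groups served for levels, the comparison of cell lines and the 36 pairs of groups. The thresholds were those of the study, more than 1.5-fold and an adjusted p under 0.001; the study used DESeq2. CPM come from the fit of all groups, and levels per kilobase use the Ensembl canonical transcript. The SE is the log2 fold change divided by the square root of F. The chi-square per degree of freedom of SUM44 LTED-A replicates 2 and 3 was 0.312, against 2.35 to 58.1 for the 26 other replicate pairs, and their mean was used as 1 sample. At 19 to 58 counts per library, PSMB8 and PSMB9 in MM134 parental cells were the least precise. The fits were tested on simulated data. Promoter sequences are RefSeq's.

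The 9 genes and the lists were chosen with earlier results of these data known. All 9 genes are named in each comparison, and a list gene is named if it passed in at least 1 LTED comparison, up to 4 per list by size of change; further list genes that passed were named after their values were seen, and likeness names the 3 genes with the highest r. Results for some genes that these rules name are not reported here. Alternatives were DESeq2 1.42.0, RLE size factors, keeping genes with low counts, asking for 10 counts in each sample, a replicate block, other thresholds, fits of 2 groups, the duplicate samples kept apart, and leaving out each library.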

Additional observations from a re-analysis of the deposited data

Results flagged for a closer look

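The mean LTED change differed between MM134 and SUM44 cells for 5 of the 9 genes by the test of the difference itself (edgeR, 1 fit of both lines). That test measures against the spread between wells, and not against the spread between the variants of a line. The differences of log2 changes were 1.88 for HLA-E, 1.82 for B2M, 1.35 for TAP1, 0.95 for PSMB8 and 0.76 for PSMB9, each higher in MM134. HLA-E, B2M and TAP1 were above 0 in all 4 MM134 variants and below 0 in both SUM44 variants, whereas PSMB8 rose in MM134 LTED-B, LTED-D and LTED-E and PSMB9 in LTED-D, and neither passed in SUM44. Groups of 3 libraries are too small for the check on single outlying samples.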

How the results depend on the processing

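The number of the 9 genes called changed mainly with the thresholds. At a 2-fold minimum it was 3 in MM134 LTED-A (5 as reported), 1 in LTED-B (4), 3 in LTED-E (8), 0 in SUM44 LTED-A (2), 0 between SUM44PE and SUM44F (1) and 3 for the difference between cell lines (5), and with no fold minimum it was 7 in MM134 LTED-B. At an adjusted p under 0.05 it was 5 in SUM44 LTED-B (3) and 2 between SUM44PE and SUM44F. A fit of SUM44F and SUM44 LTED-A alone called 1 gene. Between SUM44PE and SUM44F, DESeq2, RLE size factors, keeping low genes and asking for 10 counts in each sample all called 0. Leaving out 1 library gave 4 to 5 called genes in MM134 LTED-A; LTED-B had 3 to 4, LTED-D had 5 to 6, LTED-E had 8, and there were 1 to 2 in SUM44 LTED-A, 3 to 4 in SUM44 LTED-B, 0 to 1 between the SUM44 cultures, 7 to 8 between the parental cultures and 4 to 5 for the difference between lines.

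Signs turned for values near 0. PSMB9 in SUM44 LTED-A (-0.01) was 0.01 with no filter, 0.03 with DESeq2, with RLE or with replicates 2 and 3 kept separate, 0.02 with SUM44PE added and 0 in the fit of 2 groups. PSMB8 there was 0 with the replicate block. The HLA-B difference between lines (0.03) was -0.01 with DESeq2 and with RLE, that of HLA-C was 0 at 10 counts or more, and JAK2 and MICB in MM134 LTED-A were 0 at 10 counts or more. Without 1 library the ranges that crossed 0 were -0.06 to 0.09 (HLA-B) and -0.15 to 0.09 (HLA-C) between lines, -0.12 to 0.20 (PSMB8) and -0.09 to 0.09 (PSMB9) in SUM44 LTED-A, and -0.06 to 0.03 (PSMB8) and -0.06 to 0.11 (PSMB9) in SUM44PE. Among listed genes they were -0.09 to 0.01 (CIITA), -0.10 to 0.01 (POMP) and -0.02 to 0.06 (PSMB10) in MM134 LTED-B, -0.05 to 0.08 (JAK2), -0.02 to 0.05 (MICB) and -0.04 to 0.01 (THOP1) in LTED-A, -0.05 to 0.01 (MICB) in LTED-D, and -0.02 to 0.07 (PSMB10) and -0.02 to 0.02 (THOP1) in LTED-E. The causes were not tested.

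Of 39 pairs of libraries with the same replicate number, 7 had deviations that correlated above 0.1 (r from -0.26 to 0.185), so the numbers do not pair the samples, and in 11 of the 39 the library was most like the one of its own number in the other group. With the replicate block the PSMB9 difference between lines was 0.77 (adjusted p = 0.0011), just short of the threshold, and the block changed no other call of the 9 genes. That call was also lost with no filter (0.74), DESeq2 (0.71) and RLE (0.71). NLRC5 in SUM44 LTED-A passed with DESeq2 (-1.21) and with low genes kept (-1.23), and HLA-C in SUM44 LTED-B with low genes kept (-0.59) or SUM44PE added (-0.59). Summing alternative copies of the HLA genes was planned and not run. Depth limits PSMB9 and PSMB8 in MM134 parental cells, at 19 to 58 counts per library.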
